A study of Pimephales promelas with 27 samples.

Results

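The late change in culture with dihydrotestosterone was read from 9 arrays of fathead minnow (Pimephales promelas) ovary explants, 4 taken after 12 h and 5 after 9 h, of 27 arrays in the series. The 9 were taken by their labels, which give agent and time, and no measured value was used to choose them. All 9 explant samples were of female ovary held in culture with dihydrotestosterone (DHT) at 1e-06 M, and they differ in the labels only by time. The 18 other arrays held control explants at 6, 9 and 12 h (4, 5 and 4 arrays) and DHT explants at 6 h (5 arrays). The labels give the controls no agent and name no vehicle. They carry no replicate numbers either. Those used here count the arrays of each group in sample order and do not pair arrays between groups. Whether explants of 1 group were cut from different fish is not given there, and p-values therefore cover only the spread between these samples, which may be technical. An explant is a piece of a whole organ, and in such bulk RNA fewer cells of a type and less RNA per cell cannot be told apart.

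DHT is an androgen that binds the androgen receptor, a transcription factor that moves to the nucleus and acts on target genes once it holds its ligand. Unlike testosterone, DHT is no substrate of aromatase, the enzyme that makes oestrogens, so it is used to separate androgen from oestrogen action. In the fish ovary, steroids are made by the follicle cells around each oocyte under the control of pituitary gonadotropins. An explant keeps oocytes and follicle cells together but is cut off from the pituitary and from blood flow.

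The arrays carry oligonucleotide probes made against fathead minnow sequence contigs. The files pair none of the probes with a gene, and 0 of the 15208 probe names matched the RefSeq gene table of the species (fPimPro1.hap1.1, 64593 genes). Probes are therefore given by their IDs, and neither gene groups nor the ovary's cell type markers could be looked up. A level is a log2 signal after subtraction of that array's 75th percentile, so a level of 0 is the signal at that percentile, and a change is a difference of levels, 12 h minus 9 h. The scanner software marked 80.3% to 87.3% of the probes as well above background on these 9 arrays, and saturation was flagged for no spot other than the array's own control spots. Precision is limited by how few arrays there are.

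Time and batch cannot be told apart in this comparison. The 12 h DHT arrays lay on slides 5 and 7, 2 on each, which were scanned on 2 days of their own. The 5 arrays of 9 h lay on slides 1 to 4, all scanned on another day, with 2 arrays on slide 3. The signal at the 75th percentile was 921 and 1222 on the arrays of slide 5 and 2819 and 2918 on those of slide 7, against 2995 to 4864 on the 9 h arrays. Every 12 h array was thus dimmer than every 9 h array (exact permutation test, two-sided, p = 0.0159, 0.0636 after Benjamini-Hochberg adjustment over 8 array measures). The median level of the tested probes was also higher at 12 h on every array, between -2.82 and -2.56 against -3.07 to -2.87. The difference was 0.27 (exact permutation p = 0.00794, the smallest that 126 arrangements allow, adjusted p = 0.0635). Both permutation tests treated the arrays as independent, although the 12 h arrays lay 2 to a slide. Their p-values may therefore be too small. The bright end did not separate, the 99th percentile of the levels lying between 4.62 and 4.83 at 12 h and between 4.64 and 4.81 at 9 h. The spike-in transcripts that the kit adds gave a similar span on both sets. The distance between 2 of them, a bright one and a dim one, was 8.74 to 9.02 at 12 h on the log2 scale. At 9 h it was 8.71 to 8.90. The level of the bright one ran from 3.77 to 4.37 at 12 h and from 2.50 to 5.21 at 9 h.

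Between 9 and 12 h with DHT, 2214 of 13714 tested probes (16.1%) differed at a limma adjusted p under 0.05. Of these, 1782 rose (13%) and 432 fell (3.15%). Before adjustment, 3798 probes were under 0.05, where 685.7 are expected with independent arrays and no effect of time or batch. With slide as a random block 3332 were, and with scan day as a random block 3298. Such blocks do not remove a batch difference that goes with time, since no slide or scan day held arrays of both 9 and 12 h. The median rise was 2.44-fold, with quartiles of 1.94 and 3.38, and the median fall 2.15-fold, with quartiles of 1.64 and 3.26. A rise of over 2-fold was found in 1276 of the rising probes (71.6%) and a fall of over 2-fold in 243 of the falling probes (56.2%). Changes of over 8-fold were few, with 26 rises and 16 falls. In 1433 of the 1782 rising probes and 297 of the 432 falling probes, the 4 arrays of 12 h and the 5 of 9 h did not overlap. Over all tested probes, called or not, the same held for 2166 (15.8%), of which 1690 were higher (12.3%) and 476 lower (3.47%) at 12 h.

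The split between rises and falls depended on how arrays were scaled to each other. Under the 75th percentile the median change over the tested probes was 0.12, and 80.5% of the calls were rises. Quantile normalization put the median at -0.02 and called 1188 rises and 626 falls (65.5% rises), and the authors' deposited log2 values put it at -0.003 and gave 1216 and 600 (67.0% rises). Centring each array on its median, an alternative added after the data were seen, gave 1145 rises and 1422 falls. Under each of 5 scalings, these 4 and normexp background correction followed by quantile normalization, 940 of the 1782 rises (52.7%) and 336 of the 432 falls (77.8%) were called in the same direction. Of the rises, 10 had the opposite sign under at least 1 scaling, and none of the 2214 was called in the opposite direction under any of the 5. The 940 rises had a median of 3.13-fold and the 336 falls one of 2.41-fold under the 75th percentile.

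**Figure D1:**
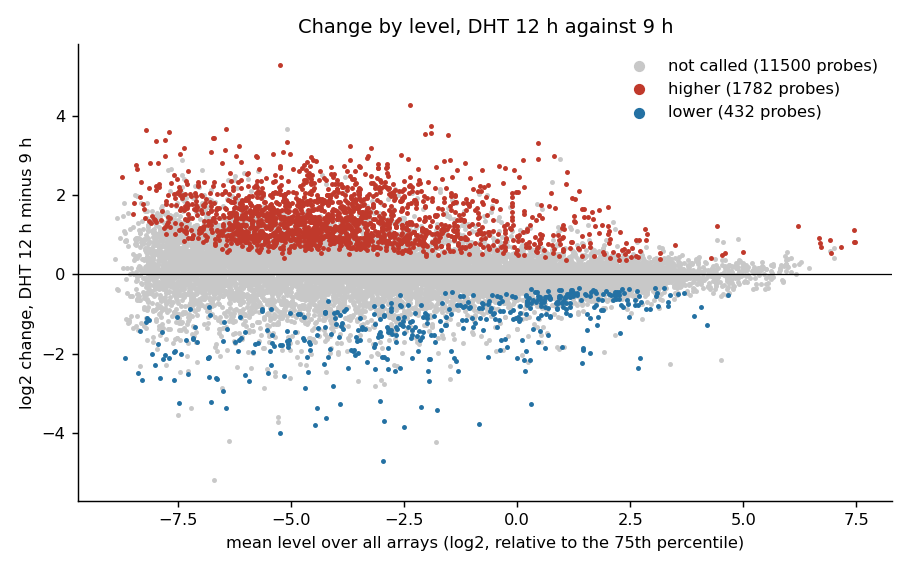
Log2 change from 9 to 12 h with DHT (vertical axis) against the mean level over all 27 arrays (horizontal axis, log2 relative to the 75th percentile), 1 point per tested probe. The 1782 probes called higher at 12 h are red, the 432 called lower are blue and the others grey. The rises lie mostly at low to middle levels.

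Rises were concentrated among probes of low to middle level. They made up 635 of 2760 tested probes with a mean level between -6 and -4 (23.0%) and 510 of 2642 between -4 and -2 (19.3%). Above a level of 0, only 140 of 3647 rose (3.84%), and 158 fell (4.33%). Below -6, where signals come near the background, 300 of 2622 rose (11.4%) and 49 fell (1.87%). The median change of all tested probes went the same way, at 0.39 both below -6 and between -6 and -4, 0.23 between -4 and -2, 0.01 between -2 and 0 and -0.05 above 0. Quantile normalization removed most of this slope, with medians between -0.06 and 0.02 in the 5 bins. It still called rises in 377 probes between -6 and -4 (13.7%) and in 154 above 0 (4.22%). Centring on the median turned the balance above 0, where 62 probes rose and 722 fell. The array medians described above moved with this pattern, and their part in it was not tested.

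**Figure D2:**
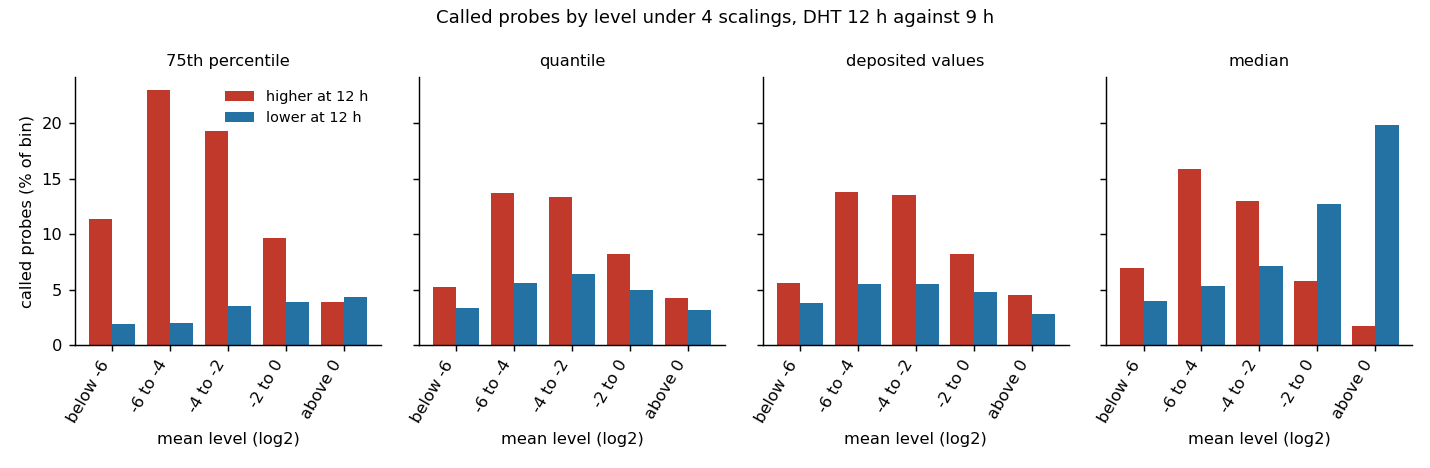
Share of tested probes called higher (red) or lower (blue) at 12 h with DHT, in percent of the probes of each bin of mean level (log2), under 4 ways of scaling the arrays. Rises are most frequent between -6 and -2 under each of the 4, and falls outnumber rises above 0 under the 75th percentile and, by 722 to 62, under median centring.

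All 9 arrays were well above background in 1510 of the rises (84.7%) and 363 of the falls (84.0%), and in 80.4% of all tested probes. A few were well above background at only 1 of the 2 times. In 11 rising probes no 9 h array and all 4 arrays of 12 h were well above background, and in 8 falling probes all 5 arrays of 9 h and no array of 12 h were. Each background array was raised to at least the lowest level of any probe well above background there. The 11 rises then came to between 1.46-fold and 4.16-fold, with 8 of them over 2-fold. The 8 falls came to between 1.52-fold and 6.72-fold. Single spots may need a higher level to count as well above background, so these folds are not strict lower limits. Of the 11 rises, 2 were well above background on no DHT array of 6 h, and of the 8 falls, 0 were. In controls, 0 of the 11 and 0 of the 8 split in the same way between all arrays of 9 h and all of 12 h. The probes were picked by this split in the DHT arrays and not in the control arrays, so these counts do not compare the arms. The share of all tested probes that split in this way was not counted in either arm. These counts cover called probes only.

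The probes with the largest change among those above background on all 9 arrays are shown by array. UF_Ppr_AF_113084 stood at 1.35 and 1.19 on slide 5 and at -0.21 and 0.37 on slide 7 after 12 h, and at -2.03, -3.99, -4.93, -3.72 and -3.32 after 9 h. All 4 late arrays lay above all 5 earlier ones. The mean rose from -3.60 ± 1.06 (SD, n = 5) to 0.68 ± 0.73 (SD, n = 4), which is a difference of 4.27 log2 units with an SE of 0.57, or 19.4-fold (limma adjusted p = 7.4e-06). Relative to the median shift of all probes the difference was 4.15. After 6 h with DHT, on the same scan day as the 9 h arrays, its mean was -3.47 ± 0.51 (SD, n = 5).

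UF_Ppr_AF_102146 stood at 1.12, 1.1, 0.09 and -0.63 after 12 h and at -3.66, -4.45, -4.95, -3.20 and -0.29 after 9 h. The groups overlapped, since replicate 5 of 9 h, at -0.29, lay above replicate 4 of 12 h, at -0.63. The mean rose from -3.31 ± 1.82 (SD, n = 5) to 0.42 ± 0.85 (SD, n = 4), by 3.73 (SE 0.90, limma adjusted p = 0.00497), or 13.3-fold. This probe was uneven before as well, with a mean of -2.08 ± 1.12 (SD, n = 5) after 6 h with DHT.

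UF_Ppr_AF_107458 fell from levels of -1.74, -1.62, -0.68, 1.35 and 1.17 after 9 h to -4, -5.69, -2.28 and -4.66 after 12 h. The groups did not overlap, the nearest arrays being -1.74 and -2.28. The mean was -0.30 ± 1.49 (SD, n = 5) at 9 h and -4.16 ± 1.43 (SD, n = 4) at 12 h. It fell by 3.85 log2 units with an SE of 0.86, or 14.4-fold (limma adjusted p = 0.00264). The 6 h mean with DHT was -2.67 ± 1.23 (SD, n = 5), between those of the later times.

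UF_Ppr_AF_118999 stood at -1.46, -2.16, -1.42, 0.69 and -0.29 after 9 h and at -4.46, -6.01, -2.59 and -5.43 after 12 h. The groups did not overlap. Both falling probes were lowest on replicate 2 and highest on replicate 3 of 12 h, and highest on replicate 4 of 9 h. The mean of UF_Ppr_AF_118999 was -3.01 ± 1.85 (SD, n = 5) after 6 h, -0.93 ± 1.13 (SD, n = 5) after 9 h and -4.62 ± 1.5 (SD, n = 4) after 12 h. From 9 to 12 h it fell by 3.69 log2 units with an SE of 0.90, or 12.9-fold (limma adjusted p = 0.00555).

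All 4 changes were larger on slide 5 than on slide 7, each set against the same 9 h arrays. They were 4.87 and 3.68 for UF_Ppr_AF_113084, 4.42 and 3.04 for UF_Ppr_AF_102146, -4.54 and -3.16 for UF_Ppr_AF_107458 and -4.31 and -3.08 for UF_Ppr_AF_118999. With only the 2 arrays of slide 7 to stand for 12 h, UF_Ppr_AF_113084 passed (limma adjusted p = 0.00165), and the other 3 did not (limma adjusted p 0.118, 0.0766 and 0.110). All 4 passed under each other alternative tried, which included leaving out any 1 of the 9 arrays.

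**Figure D3:**
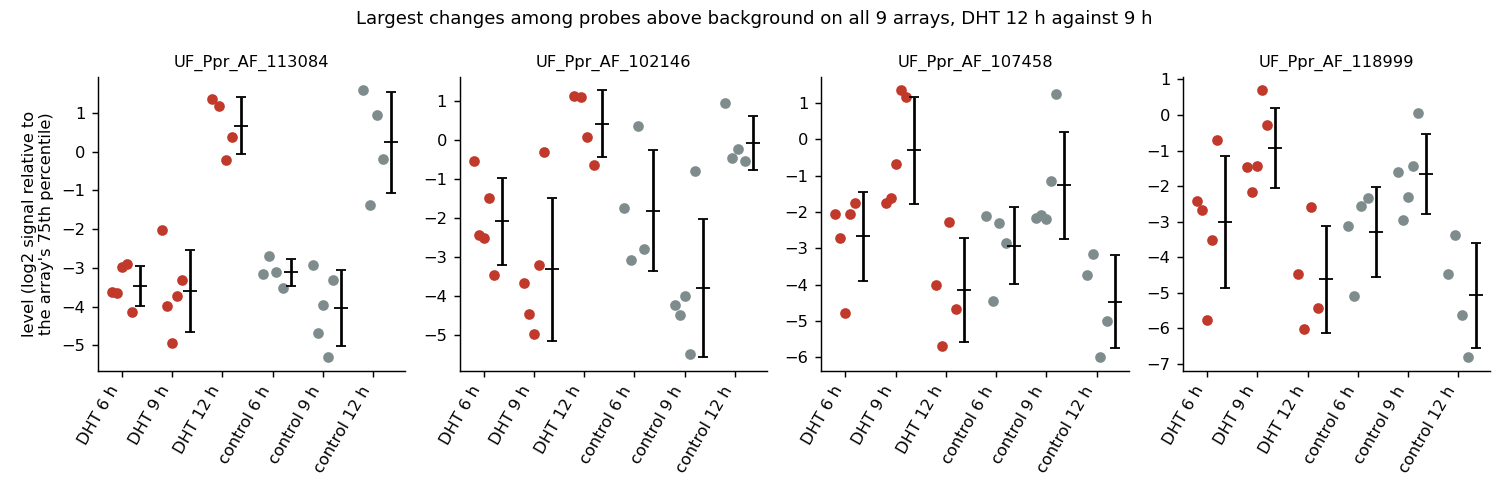
Level of 4 probes (log2 signal relative to the array's 75th percentile) on each array, 1 point per array, DHT in red and control in grey, with the mean and SD of each group as a bar beside the points. In UF_Ppr_AF_113084 the 4 DHT arrays of 12 h lie between -0.21 and 1.35, above all DHT arrays of 9 h. In each of the 4 probes the control means move in the same direction from 9 to 12 h as the DHT means. At the same time the arms are furthest apart in UF_Ppr_AF_107458 at 9 h, with means of -1.26 in controls and -0.30 with DHT.

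The spread between arrays of a time was taken by size of change among the called probes, where a small change passes the test only if its spread is small. Among rises of up to 2-fold (506 probes), the median SD over arrays was 0.33 at 9 h and 0.24 at 12 h. Among those of over 8-fold (26 probes) it was 0.77 and 0.56. For falls it went from 0.24 and 0.21 (189 probes of up to 2-fold) to 1.16 and 1.29 (16 probes of over 8-fold). Over all tested probes the median SD was 0.45 at 9 h and 0.37 at 12 h.

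At 12 h a larger share of the rising than of the falling probes stood beyond all 6 h DHT arrays in the direction of their change. Those 6 h arrays lay on slides 2 and 3 and on the scan day of the 9 h arrays. For the rising probes, the median level was -4.44 at 6 h, -4.66 at 9 h and -3.20 at 12 h. In 1238 of the 1782 (69.5%), all 4 arrays of 12 h lay above all 5 of 6 h, as they did in 12.1% of all tested probes. In 20 rising probes the 12 h mean did not exceed the 6 h mean. For the falling probes, the median level was -1.46 at 6 h, -0.76 at 9 h and -2.08 at 12 h. All arrays of 12 h lay below all of 6 h in 56 of the 432 (13.0%), which was so in 2.38% of all tested probes. Over all tested probes, too, the 12 h arrays lay apart from the 6 h arrays more often upward than downward. Those counts include the called probes, however. Of the 1663 probes apart upward, 1238 were called rises, and of the 326 apart downward, 56 were called falls. They therefore cannot show whether the larger share among rises is particular to the called probes. The counts against 6 h use levels as defined above, and whether they hold under the other scalings was not tested. In 39 falling probes the 12 h mean did not lie below the 6 h mean. In 60 of the 432 (13.9%), all arrays of 9 h lay above all arrays of both other times, as in 0.664% of all tested probes. In 43 of the rising probes (2.41%) they lay below both, as in 0.438% of all tested probes. These probes were called on the same 12 h and 9 h arrays, so that the counts describe their course and test nothing.

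The same interval without DHT was compared to ask whether the late change differed with the androgen. In controls, 2010 of 13714 probes (14.7%) passed the same limma threshold, with 1606 higher (11.7%) and 404 lower (2.95%) at 12 h. No array belongs to both arms, but their 12 h and 9 h arrays share slides and scan days. Their arrays also resembled each other in pairs. In deviations from the group means over 10015 probes above background on all arrays, 7 of the 9 DHT arrays had a most similar control array of their own time at r from 0.545 to 0.84 (across probes), 5 of these on the same slide. The arms are therefore not independent of each other.

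Of the 1782 probes that rose with DHT, 1297 (72.8%) were also called higher in controls, and of the 432 that fell, 226 (52.3%) were called lower. These 1523 probes made up 68.8% of the DHT calls and 75.8% of the control calls, and no probe was called in opposite directions. Of the DHT calls, 2200 (99.4%) had the same sign in controls, against 10939 of all 13714 tested probes (79.8%). The median control change was 1.13 where the median DHT change was 1.29, and -0.94 where it was -1.1, for probes chosen by their change in the DHT arrays. Over all tested probes the median change was 0.11 in controls and 0.12 with DHT. By level, the medians differed most below -6, at 0.16 in controls and 0.39 with DHT, and were 0.36 and 0.39 between -6 and -4. Under quantile normalization those below -6 were -0.02 in controls and 0.02 with DHT. The r between the arms was 0.805 across 13714 probes, with slides and scan days shared.

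The 4 probes described above also passed without DHT, each in the same direction. In controls UF_Ppr_AF_113084 rose by 4.28 (limma adjusted p = 7.55e-06) and UF_Ppr_AF_102146 by 3.73 (limma adjusted p = 0.00544). UF_Ppr_AF_107458 fell by 3.21 (limma adjusted p = 0.0120) and UF_Ppr_AF_118999 fell by 3.42 (limma adjusted p = 0.0109). The difference between arms, DHT minus control, was -0.01 for UF_Ppr_AF_113084, with a 95% interval of -1.67 to 1.65, and -0.64 for UF_Ppr_AF_107458, with an interval of -3.15 to 1.87. These intervals leave room for differences of over 2-fold either way.

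**Figure D4:**
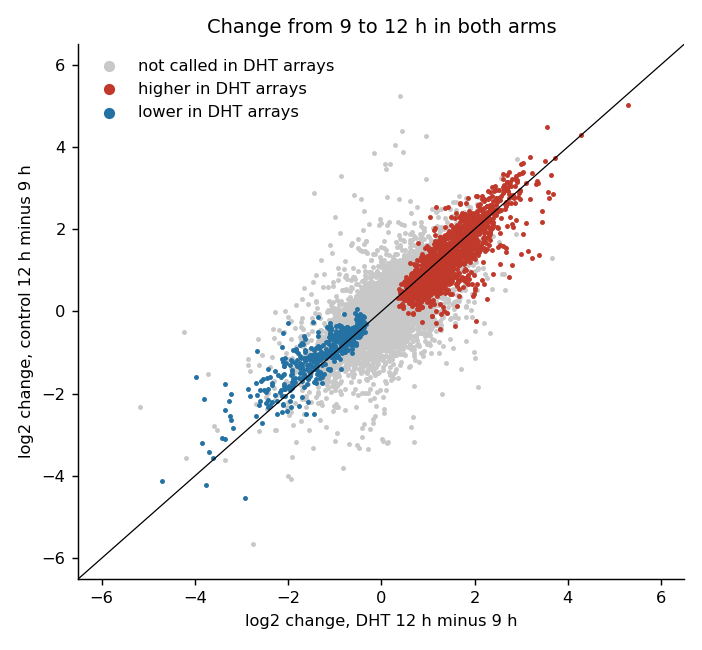
Log2 change from 9 to 12 h in controls (vertical axis) against that with DHT (horizontal axis), 1 point per tested probe, with the line of equal change in black. Red probes were called higher and blue probes lower at 12 h in the DHT arrays. The called probes lie along the line (2200 of 2214 with the same sign in both arms, against 79.8% of all tested probes).

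The difference of the change between the arms was tested in the same model. Of 13714 probes, 0 passed limma's adjusted threshold (0%). Before adjustment 165 were under 0.05, where 685.7 are expected with independent arrays and no difference between arms. The arrays of the 2 arms were not independent, so the low count is no measure of how alike the arms are. No probe was called either with slide as a fixed block, which can be fitted for this test since slides 5 and 7 and the slides of 9 h hold both arms. Slide 6 holds 1 control array of 12 h and no DHT array, so that array adds nothing there. That fit had 211 probes under 0.05 before adjustment. In 40.3% of the probes, differences of more than 2-fold in either direction lay outside the 95% interval. For the others the interval reached beyond 2-fold in at least 1 direction, so a difference of that size was not excluded in this fit. The fit did not use the likeness of arrays across the arms given above, and its part in the width of the intervals and in the low number of small p-values was not tested.

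UF_Ppr_AF_109091 had the smallest p among probes that rose less with DHT. After 12 h it stood at -3.01, -2.69, -2.67 and -3.04 in controls and at -3.89, -4.12, -3.80 and -3.93 with DHT, and the arms did not overlap. The probe was picked by its p on these same arrays, so this separation tests nothing. After 9 h the controls lay between -4.63 and -4.34 and the DHT arrays at -4.07, -3.82, -4.45, -4.68 and -4.68, and the arms overlapped. Its change was 1.61 in controls (SE 0.24, limma adjusted p = 3.15e-05) and 0.40 with DHT (SE 0.24, limma adjusted p = 0.287). The difference of -1.21 (SE 0.34, 95% interval -1.90 to -0.51) did not pass (limma adjusted p = 1), with an unadjusted p of 0.00158 from limma. It was -1.19 with slide as a fixed block.

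UF_Ppr_AF_111765 had the smallest p among probes with a higher change under DHT, at an unadjusted limma p of 0.00253 (limma adjusted p = 1). It was dim, and no control array of 12 h was well above background. With DHT, 2 of 5 arrays of 9 h and 2 of 4 of 12 h were, at means of -7.51 ± 0.65 (SD, n = 5) and -6.91 ± 0.59 (SD, n = 4). The control mean after 9 h was -6.69 ± 0.64 (SD, n = 5), with 4 of 5 arrays well above background. After 12 h it was -8.04 ± 0.90 (SD, n = 4), set by background. Both DHT means also include arrays that were not well above background. The change of UF_Ppr_AF_111765 was a fall of 1.35 in controls, which passed (limma adjusted p = 0.0267). With DHT it was a rise of 0.60, which did not (limma adjusted p = 0.368). The difference of the change was 1.94 as tested here, 1.37 with slide as a fixed block and 0.40 with normexp and quantile normalization together. Leaving out 1 array gave 1.55 to 2.25.

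**Figure D5:**
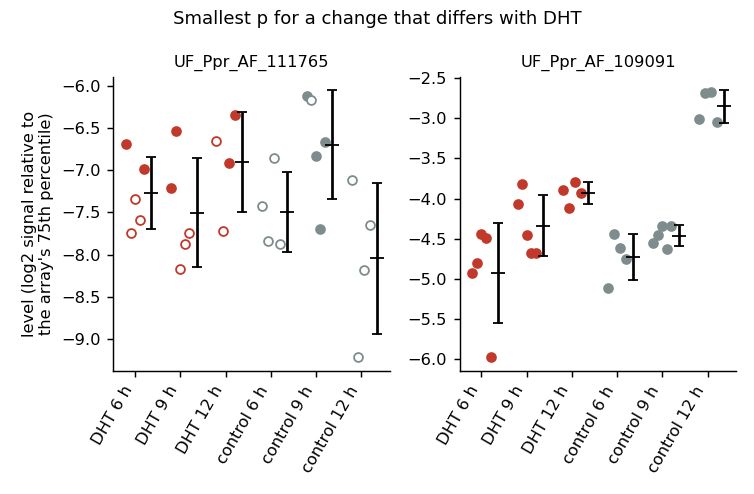
Level (log2 signal relative to the array's 75th percentile) of the 2 probes with the smallest p for a 9 to 12 h change that differs between arms, 1 point per array, DHT in red and control in grey, open where not well above background, with mean and SD beside the points. In UF_Ppr_AF_109091 the control arrays of 12 h lie between -3.04 and -2.67 and the DHT arrays of 12 h between -4.12 and -3.80, and neither probe passed the test.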

How the data were processed

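RNA of the explants was labelled with Cy3 and hybridised to 1-colour Agilent arrays, per the labels. The authors' scanner files hold, per the file headers, processed signals as linear intensity after background subtraction within the array (Agilent Feature Extraction 10.7.1.1), median spot and background intensity, and other columns with flags of 0 or 1. The deposited log2 values have an unstated normalization. Each of their columns was set against that array's processed signals on the log2 scale (lowest r 0.9976), and their medians ran from 8.13 to 8.20.

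Log2 processed signals of the 15208 non-control probes were set relative to each array's 75th percentile. Probes flagged as non-uniform or population outliers on any array (169) or well above background on fewer than 4 arrays (1333) were left out, some for both reasons, leaving 13714. limma 3.58.1 (R 4.3.3) fitted a mean for each of the 6 groups over 27 arrays, with Benjamini-Hochberg adjustment per contrast over all tested probes and a threshold of 0.05. The fit was also run on simulated arrays with independent noise and no slide effects, which cannot speak to batch or to likeness between arrays. Figures were drawn with matplotlib 3.10.9. The 12 h arrays lie on slides of their own, so slide could not be a fixed term for the time contrast.

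Probes named are the 2 largest rises and the 2 largest falls among called probes above background on all 9 DHT arrays, and the smallest p in each direction for the difference between arms. Planned gene lists and cell type markers could not be used without gene names. Groups, lists and rules were chosen with earlier results of these data known.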

Additional observations from a re-analysis of the deposited data

Results flagged for a closer look

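One value stood apart from the others of its group, by Dixon's criterion at 95%. The level of a bright spike-in transcript relative to the 75th percentile of its array was 2.50 on DHT 9 h replicate 2. It lay between 4.84 and 5.21 on the other 4 DHT arrays of 9 h and between 3.77 and 4.37 on those of 12 h. The control arrays of 9 h ran from 1.52 to 4.82, a range that holds 2.50. In all, 28 sets of values were examined this way, and chance flags about 1 in 20. Without DHT 9 h replicate 2, limma called 2465 probes between 9 and 12 h, 1962 higher and 503 lower, against 2214 with it.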

How the results depend on the processing

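The number of calls between 9 and 12 h with DHT stayed within 1.5 times of 2214 under 10 of 11 other settings, at 1645 to 2567, and when any 1 array was left out, at 1675 to 2465. The exception kept only the slide 7 arrays of 12 h (1106 calls, 957 higher and 149 lower). Only the slide 5 arrays gave 1435 higher and 210 lower. Both slide fits and median centring (1145 higher, 1422 lower) were chosen after the data were seen. Slide as a random block gave 1758 calls. The lower probes, 432 here, numbered 626 with quantile normalization alone, 730 with normexp and quantile normalization together, and 268 with scan day as a random block. Leaving out 1 array gave 1401 to 1962 higher and 269 to 503 lower probes, the 269 without DHT 9 h replicate 4. The causes were not tested. The difference between arms called 0 probes under each of 10 other settings and without any 1 of 18 arrays. Between 86 and 357 probes had an unadjusted p under 0.05 in limma. The 86 were of 10015 probes well above background on all arrays, and the 357 of 13714 without DHT 9 h replicate 2. The 4 named changes kept their direction under all settings. No paired analysis was possible because the labels carry no replicate numbers. Fold changes of dim probes are limited by signal over background.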

Other observations

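For 709 sequence names the array holds 2 probes, the second marked by a suffix that the files do not explain. In 440 of these pairs both probes were tested. The second probes were dimmer, with a median level after 9 h with DHT of -6.23 against -1.65. The change from 9 to 12 h with DHT of the 2 probes had an r of 0.117 across pairs, and of 0.241 across the 188 pairs above background on all 9 arrays. Of 54 pairs whose first probe was called, the second had the same sign in 35, and was called in the same direction in 4 and in the opposite direction in 1. Over all tested probes, at all levels and in both directions together, 16.1% were called. Among those with a mean level below -6, 11.4% were called higher and 1.87% lower. The share of same signs over all 440 pairs was not counted. Whether both probes of a pair read the same strand was not tested.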
